A study of Mus musculus with 49 samples.

Results

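The genes of oxidative phosphorylation (OXPHOS) that lie in the nuclear genome were described in single late 2-cell mouse embryos in which TBP or FOXJ3 had been depleted (loss of function, LOF). Members were the protein-coding genes whose symbols begin with Nduf, Uqcr, Cox4 to Cox8 or Atp5, together with Sdha, Sdhb, Sdhc and Sdhd, which gave 94 of the 54838 genes in the tables. They were 7 core subunits, 29 supernumerary subunits and 8 assembly factors of complex I, 4 subunits of complex II, 8 of complex III, 20 of complex IV and 18 of complex V. Ndufa4, Ndufa4l2 and Cox7a2l were counted with complex IV, where their proteins act, and 1 of the 18 loci of complex V is a short locus that overlaps Atp5o and carries the same symbol (the Atp5o readthrough). A further 13 genes with matching symbols are not protein coding and were left out.

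All embryos came from F1(C57BL/6JxCBA/H) females mated with F1 males. They were injected as zygotes, first with an antibody and 4 h later with Trim21 mRNA, and collected at 48 h after hCG. TBP LOF embryos (n = 9) had received an antibody against TBP and their CONTROL embryos (n = 10) mouse IgG, whereas FOXJ3 LOF embryos (n = 17) had received an antibody against FOXJ3 and their CONTROL embryos (n = 13) rabbit IgG. CONTROL embryos therefore also carried Trim21 and an antibody. Trim-Away, as the procedure is called, directs the antibody-bound protein to degradation and leaves the gene intact, so that residual protein may remain. Each embryo was 1 library, only reads from the 5' ends of transcripts were counted, and libraries of the FOXJ3 experiment came in 2 batches. Of 49 embryos 47 passed the quality control, with 9 and 9 left in the TBP experiment and 16 and 13 in the FOXJ3 experiment.

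Oxidative phosphorylation takes place in the inner mitochondrial membrane. Complexes I and II pass electrons from NADH and succinate to ubiquinone, complex III passes them on to cytochrome c and complex IV to oxygen, while complex V, the ATP synthase, uses the proton gradient to make ATP. Complexes I, III, IV and V combine subunits encoded in the nucleus with subunits encoded in mitochondrial DNA, and complex II is encoded in the nucleus alone. The cleavage embryo inherits its mitochondria from the oocyte. TBP is the TATA-binding protein, a general factor of transcription by the nuclear RNA polymerases, and FOXJ3 is a forkhead transcription factor.

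The promoters of 6 members are shown first, as windows of 300 bases that begin 250 bases before the RefSeq start of the gene and end 50 bases after it (GRCm38.p6, written in the direction of transcription). Ndufb7, Ndufaf8 and Atp5k were among the 4 members of their groups with the smallest p in TBP LOF embryos, Ndufaf4 was an abundant assembly factor that was not called, and Cox6b1 and Cox6b2 encode alternative forms of the same complex IV subunit. The windows lie at chr8:83566508-83566807, plus strand (Ndufb7), chr11:120098684-120098983, plus strand (Ndufaf8), chr5:108434350-108434649, minus strand (Atp5k), chr4:24897833-24898132, plus strand (Ndufaf4), chr7:30626065-30626364, minus strand (Cox6b1) and chr7:4753045-4753344, minus strand (Cox6b2). Capitals mark 5 motifs on either strand. TATAAA is the TATA box and GGGCGG the GC box of Sp factors. ETS factors such as GABP are known for CCGGAAG, YY1 for AAGATGGC, and NRF1 for GCGCATGCG.
Ndufb7: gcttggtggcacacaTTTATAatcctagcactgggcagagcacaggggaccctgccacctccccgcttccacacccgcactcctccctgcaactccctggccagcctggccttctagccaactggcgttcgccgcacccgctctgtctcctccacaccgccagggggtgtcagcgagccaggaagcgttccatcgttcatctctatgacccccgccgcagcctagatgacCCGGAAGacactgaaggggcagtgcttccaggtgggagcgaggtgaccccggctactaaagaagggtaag
Ndufaf8: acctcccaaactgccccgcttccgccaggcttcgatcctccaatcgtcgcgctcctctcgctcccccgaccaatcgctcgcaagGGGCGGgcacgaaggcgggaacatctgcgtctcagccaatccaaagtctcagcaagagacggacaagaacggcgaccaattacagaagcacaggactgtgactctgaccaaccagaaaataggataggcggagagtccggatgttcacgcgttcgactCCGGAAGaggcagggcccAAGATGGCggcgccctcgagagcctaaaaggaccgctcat
Atp5k: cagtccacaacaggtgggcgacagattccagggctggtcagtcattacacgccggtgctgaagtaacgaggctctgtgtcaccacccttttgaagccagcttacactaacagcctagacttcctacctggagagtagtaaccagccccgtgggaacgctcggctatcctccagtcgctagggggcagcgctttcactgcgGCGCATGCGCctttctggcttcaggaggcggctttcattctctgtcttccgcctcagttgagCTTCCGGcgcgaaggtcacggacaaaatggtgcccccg
Ndufaf4: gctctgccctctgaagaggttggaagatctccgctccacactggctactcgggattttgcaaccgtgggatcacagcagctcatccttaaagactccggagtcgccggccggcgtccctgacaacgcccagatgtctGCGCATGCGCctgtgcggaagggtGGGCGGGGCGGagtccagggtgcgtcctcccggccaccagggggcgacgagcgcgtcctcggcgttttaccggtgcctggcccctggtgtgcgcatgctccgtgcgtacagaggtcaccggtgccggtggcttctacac
Cox6b1: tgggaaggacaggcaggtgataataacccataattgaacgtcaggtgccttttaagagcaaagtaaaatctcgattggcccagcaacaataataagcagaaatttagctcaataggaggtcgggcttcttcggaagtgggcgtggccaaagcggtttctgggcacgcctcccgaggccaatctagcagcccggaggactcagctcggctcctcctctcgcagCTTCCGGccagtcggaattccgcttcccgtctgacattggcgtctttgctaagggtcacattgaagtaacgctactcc
Cox6b2: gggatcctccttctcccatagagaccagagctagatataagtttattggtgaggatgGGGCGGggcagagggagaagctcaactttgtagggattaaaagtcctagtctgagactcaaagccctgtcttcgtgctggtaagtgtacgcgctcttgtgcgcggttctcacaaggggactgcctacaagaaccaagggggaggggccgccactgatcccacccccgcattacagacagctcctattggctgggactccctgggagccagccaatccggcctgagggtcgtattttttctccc

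NRF1, GABP and YY1 are factors long known for binding promoters of respiratory chain genes. A promoter window was at hand for 72 members. The NRF1 letters were found in 10 of these (13.9%), against 1.81% of all 27025 promoters of the same length, and the YY1 letters also in 10 (13.9% against 2.88%). CCGGAAG occurred in 15 members (20.8% against 9.12%) and GGGCGG in 34 (47.2% against 35.9%), whereas TATAAA occurred in 7 (9.72% against 14.2%). The printed promoters hold the NRF1 letters in Atp5k and Ndufaf4, overlapping on both strands, and CCGGAAG close to the start in Ndufb7, Ndufaf8, Atp5k and Cox6b1. Of the promoters with CCGGAAG, 12 belonged to the 40 members with a promoter that were called lower in TBP LOF embryos and 3 to the 31 not called, with no test made. For the other motifs these counts were 6 and 4 (NRF1), 5 and 5 (YY1), 17 and 17 (GC box), 4 and 2 (TATA box) and 19 and 12 (CCAAT box). The letters CCAAT, also searched on both strands but not capitalised above, were found in 31 members (43.1% against 37.9%). In Ndufb7 the TATA letters lie far upstream on the opposite strand. These matches describe letters and no binding was measured.

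As a check of the embryos, all 10 genes taken as markers of the late 2-cell stage were read in every group. Their summed level had a median between 2335 and 3419 CPM (reads scaled to the total of genes and transposable element families). They included Dppa3, and the sum need not be particular to this stage. Markers of cumulus and granulosa cells reached at most 25.8 CPM in sum, and Fshr and Inhba had no read in any group. Counted reads per embryo lay between 1103569 and 5434808. ERCC spike-in transcripts took 4.29% ± 1.19 (SD) of reads in TBP LOF and 2.76% ± 0.372 in CONTROL embryos, and this difference enters every value scaled to them. The 9 oocyte markers, which mark RNA stored in the egg, summed to 1911 to 3432 CPM in TBP LOF and 794 to 2391 CPM in CONTROL embryos, all of them being read in each group, and their part in the results below was not tested. Tbp mRNA itself, which Trim-Away does not target, lay at 52.4 ± 35.6 CPM against 148 ± 49.9, and Foxj3 mRNA at 143 ± 29.6 in FOXJ3 LOF against 125 ± 27.4 in its CONTROL embryos. Neither mRNA checks for loss of the protein.

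Before any comparison, the members were found to be expressed in the CONTROL embryos over a wide range. With mouse IgG, the 94 members together took 0.634% ± 0.0864 of reads (SD, n = 9), and with rabbit IgG 0.681% ± 0.153 (n = 13). In each of these groups 81 members were read in every embryo. Per kilobase of exon, Cox8a stood highest with mouse IgG at 1167 ± 285 CPM per kb (SD, n = 9), followed by Ndufa2 (362 ± 73.4), Cox6b2 (317 ± 104), Uqcr10 (308 ± 63.8), Cox7a2 (270.5 ± 68.3) and Cox6a1 (259 ± 48.3). Each of these neighbours but Cox8a and Ndufa2 lay within 1 SD of the next. In CPM, not divided by length, Cox8a took 722 ± 177, Atp5g1 385 ± 74.6, Cox6b2 351 ± 115 and Atp5b 346 ± 80.0. As only 5' ends were counted, reads need not grow with exon length. Values per kb, here and below, can therefore place short genes too high and long genes too low. The subunits of complex II were scarce, with 13.8 ± 7.39 CPM per kb for Sdhd, 5.51 ± 3.85 for Sdhb, 4.71 ± 1.98 for Sdha and 3.76 ± 1.04 for Sdhc. Without division by length, these subunits together took 0.0061% ± 0.00185 of reads with mouse IgG (SD, n = 9).

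With rabbit IgG, Cox8a stood at 1203 ± 381 CPM per kb (SD, n = 13), Ndufa2 at 346 ± 136, Cox6b2 at 260.4 ± 117 and Uqcr10 at 300.3 ± 124, so that Cox8a was again the highest and the others lay within their spread of each other. Among the 32 members with at least 100 reads on average with mouse IgG, the spread between embryos (SD over mean of normalised counts) had a median of 30.7%, from 11.6% for Ndufa7 to 59.6% for Cox7b. In TBP LOF embryos the same median was 44.8% over 26 members.

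The first comparison asked which of these genes differ between embryos with and without TBP. Normalised counts are reads divided by a size factor from the ERCC spike-ins, so that a count is relative to the spike-in RNA added to the embryo. Because an embryo was lysed whole, fewer cells and less RNA per cell cannot be told apart. After a filter on low values (at least 1 read in at least 25% of embryos) 91 members were tested, without Cox6a2, Cox8b and Ndufa4l2. Of these, 53 fell in TBP LOF embryos, 0 rose and 38 were not called, at an adjusted p under 0.05 in edgeR's quasi-likelihood test. Of all 18447 genes tested, 29.8% were called lower and 1.4% higher. No member reached an unadjusted p under 0.05 in the higher direction in edgeR, and DESeq2 called 0 higher as well. The median log2 fold change of the members was -1.13 and that of all genes -0.70. With edgeR's stricter filter on expression 50 of 77 members were lower, against 52.7% of the 7699 genes that passed it.

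By complex, 5 of 7 core subunits of complex I fell (median log2 fold change -1.57), 10 of 29 supernumerary subunits (-0.65) and 5 of 8 assembly factors (-1.71). Complex II had 2 of 4 lower (-1.13), complex III 6 of 8 (-1.21), complex IV 10 of 17 tested (-1.25) and complex V 15 of 18 (-1.27). The supernumerary subunits of complex I thus had a median close to that of all genes, and the other groups a lower one. With edgeR's stricter filter, 8 of 13 members of complex IV were lower and their median was -0.94, close to that of the genes that passed it (-0.90), while the medians of the supernumerary subunits (-0.72) and of complex V (-1.32) lay on either side. A difference between complexes was not tested.

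The choice of scale decides how many members are called. Scaled by TMM, which assumes that most genes do not change, the median of all genes moved to 0.13 and that of the members to -0.19. On this scale 22 members were lower and 6 higher (Ndufa6, Ndufab1, Ndufb6, Ndufaf4, Cox8a and Cox6b2), against 12.9% and 13.2% of all genes. All 22 were among the 53. Of the calls on the TMM scale 78.6% were lower among the members and 49.4% among all genes, and with ERCC 100% and 95.5%. By complex, the TMM scale gave 3 lower and 0 higher of 7 core subunits, 4 lower and 3 higher of 29 supernumerary subunits and 3 lower and 1 higher of 8 assembly factors of complex I, 1 lower and 0 higher of 4 of complex II, 1 lower and 0 higher of 8 of complex III, 4 lower and 2 higher of 17 of complex IV and 6 lower and 0 higher of 18 of complex V. On this scale the lower calls in complex III (12.5%) and among the supernumerary subunits of complex I (13.8%) were near the share of all genes. The higher calls among these supernumerary subunits (10.3%), in complex IV (11.8%) and among the assembly factors of complex I (12.5%) were likewise near it.

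**Figure D1:**
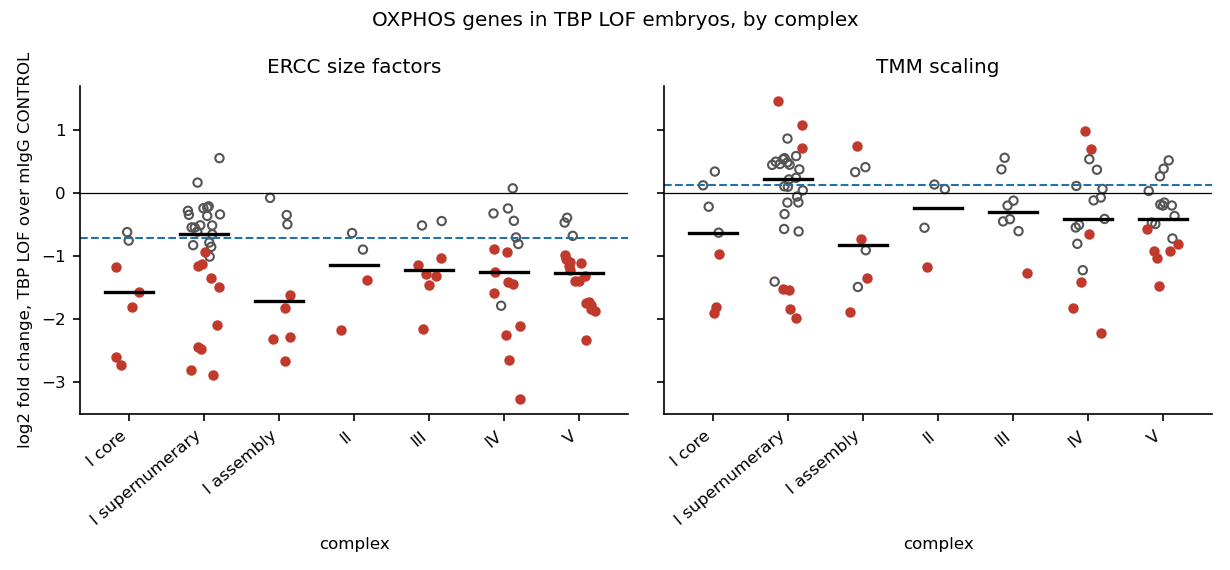
Log2 fold change of each tested member in TBP LOF over mIgG CONTROL embryos (y axis) by complex (x axis), scaled by ERCC (left) and TMM (right). Filled points passed an adjusted p under 0.05, black bars are medians of the group and the dashed line is the median of all genes. With ERCC 53 of 91 points are filled, all below 0, and with TMM 22 are filled below 0 and 6 above.

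In complex I, the core subunit Ndufs8 was among the 4 subunits with the smallest p. Ndufs8, which carries iron-sulfur clusters, had normalised counts (lowest, median and highest embryo) of 2.66, 17.4 and 89.3 in TBP LOF embryos and 80.9, 162 and 209.6 in CONTROL embryos. Here 8 of 9 TBP LOF embryos were below every CONTROL embryo and the remaining one was embryo 6, with a log2 fold change of -2.60 (SE 0.41, edgeR adjusted p = 1.4e-06). The supernumerary subunits Ndufb2 and Ndufb7 belong to the membrane arm. For Ndufb2 the counts were 11.5, 17.4 and 38.1 in TBP LOF embryos and 74.8, 97.7 and 163 in CONTROL embryos, and for Ndufb7 0.732, 4.83 and 13.1 in TBP LOF embryos and 15.7, 43.3 and 70.5 in CONTROL embryos. Both were free of overlap, with log2 fold changes of -2.45 (SE 0.32) and -2.88 (SE 0.44), at edgeR adjusted p = 4e-08 and 7.6e-07.

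The subunit of complex I with most reads, Ndufa2, had 52.7, 182 and 461 in TBP LOF embryos and 376, 447 and 759 in CONTROL embryos, so that 8 of 9 TBP LOF embryos were under the lowest CONTROL embryo, with a log2 fold change of -1.13 (SE 0.31, edgeR adjusted p = 0.0031). Ndufa6 had the largest log2 fold change of the complex, 0.56 (SE 0.32, edgeR adjusted p = 0.19). Its counts of 24.1, 68.3 and 113 in TBP LOF embryos and 28.3, 42.8 and 63.1 in CONTROL embryos overlapped, and TMM placed it at 1.47 (edgeR adjusted p = 0.00018). A pair of further subunits that TMM called higher, named here after their values were seen, were Ndufab1, the mitochondrial acyl carrier protein, and Ndufb6. Ndufab1 had 120.4, 188 and 264 in TBP LOF embryos and 74.1, 175 and 214 in CONTROL embryos with ERCC scaling, a log2 fold change of 0.17 (SE 0.28, edgeR adjusted p = 0.71), and Ndufb6 one of -0.24 (SE 0.31, edgeR adjusted p = 0.62). The 2 core subunits not called were Ndufv1, which takes electrons from NADH (-0.62, SE 0.44), and Ndufv2 (-0.75, SE 0.35).

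Assembly factors build complex I and do not stay in it. Ndufaf7, a methyltransferase, had counts of 1.46, 18.4 and 30.2 in TBP LOF embryos and 39.7, 93.9 and 138 in CONTROL embryos. The groups did not overlap and the log2 fold change was -2.67 (SE 0.40, edgeR adjusted p = 5.3e-07). Ndufaf5, which modifies Ndufs7, had 6.89, 11.6 and 29.0 in TBP LOF embryos and 28.4, 61.5 and 134 in CONTROL embryos and a log2 fold change of -2.28 (SE 0.37, edgeR adjusted p = 2.6e-06). All but 1 of its TBP LOF embryos were below the CONTROL range. Ndufaf8, which works with Ndufaf5, lay at 5.86, 24.7 and 41.0 in TBP LOF embryos and 42.1, 69.8 and 114 in CONTROL embryos, again without overlap (-1.61, SE 0.34, edgeR adjusted p = 0.00016). Ndufaf1 was scarce, with 0, 0.966 and 16.4 in TBP LOF embryos and 5.05, 22.6 and 32.2 in CONTROL embryos, and fell by 2.32 on the log2 scale (SE 0.59, edgeR adjusted p = 0.0014). Without TBP LOF embryo 10 it stood at -3.02 and was called as well. The factor with most reads, Ndufaf4, was also the one nearest to 0. It had 64.7, 146 and 259.9 in TBP LOF embryos and 108, 146 and 208 in CONTROL embryos, which overlapped over most of their range, and its log2 fold change was -0.07 (SE 0.30, edgeR adjusted p = 0.89), or 0.75 (edgeR adjusted p = 0.012) with TMM.

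In complex II the membrane anchors Sdhc and Sdhd fell and the catalytic subunits were not called. Sdhd had 4.39, 8.21 and 14.8 in TBP LOF embryos and 5.05, 42.3 and 78.1 in CONTROL embryos, with 2 of 9 TBP LOF embryos under the lowest CONTROL embryo but all 9 under the CONTROL median, and a log2 fold change of -2.17 (SE 0.42, edgeR adjusted p = 3.7e-05). For Sdhc the counts were 3.86, 9.02 and 21.7 in TBP LOF embryos and 14.1, 27.1 and 44.3 in CONTROL embryos and the log2 fold change -1.37 (SE 0.42, edgeR adjusted p = 0.0084). The flavoprotein Sdha had 12.5, 25.3 and 60.3 in TBP LOF embryos and 18.6, 35.2 and 76.4 in CONTROL embryos, overlapping widely (-0.63, SE 0.36, edgeR adjusted p = 0.19). Sdhb, the iron-sulfur subunit, had 2.93, 11.6 and 41.8 in TBP LOF embryos and 8.56, 26.0 and 84.6 in CONTROL embryos and a log2 fold change of -0.89 (SE 0.43, edgeR adjusted p = 0.11). A CONTROL embryo lay far above the others for Sdhb, and without TBP LOF embryo 10 it was called, at -1.25 (edgeR adjusted p = 0.025). Without that CONTROL embryo, number 10, it stood at -0.50 (edgeR adjusted p = 0.45).

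Complex III followed, with its catalytic Rieske iron-sulfur protein Uqcrfs1 changing most. Uqcrfs1 had 14.9, 33.8 and 80.2 in TBP LOF embryos and 71.2, 172 and 467 in CONTROL embryos, and 7 of 9 TBP LOF embryos lay under the CONTROL range, with a log2 fold change of -2.16 (SE 0.35, edgeR adjusted p = 2e-06). The small subunit Uqcr11 had 4.39, 23.2 and 50.8 in TBP LOF embryos and 39.7, 63.7 and 85.3 in CONTROL embryos (-1.29, SE 0.35, edgeR adjusted p = 0.0026). For the core protein Uqcrc2 the counts were 4.39, 15.97 and 45.9 in TBP LOF embryos and 23.5, 43.8 and 79.8 in CONTROL embryos (-1.32, SE 0.38, edgeR adjusted p = 0.0045). The ranges overlapped in both, with 8 (Uqcr11) and 7 (Uqcrc2) of 9 TBP LOF embryos under the CONTROL range. Uqcr10, the small subunit with most reads, had 58.6, 196 and 313 in TBP LOF embryos and 314, 368 and 572 in CONTROL embryos, and the highest TBP LOF embryo was just under the lowest CONTROL embryo (-1.03, SE 0.30, edgeR adjusted p = 0.0051). Uqcrh, the hinge protein that binds cytochrome c1, was closest to 0 with 25.8, 85.0 and 112 in TBP LOF embryos and 50.3, 100.2 and 219 in CONTROL embryos (-0.44, SE 0.31, edgeR adjusted p = 0.31), and Uqcrq was the other subunit not called (-0.51, SE 0.30).

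Complex IV held subunits with large falls, whereas Cox8a and Cox6b2, its members with most reads, were not called. Cox7c, a small structural subunit, had 14.6, 41.2 and 130.4 in TBP LOF embryos and 226, 321 and 567.6 in CONTROL embryos, free of overlap (-2.65, SE 0.34, edgeR adjusted p = 2.2e-08). Cox4i1, the nuclear subunit through which ATP is known to inhibit the enzyme, had 14.6, 50.7 and 94.2 in TBP LOF embryos and 144, 254 and 359.9 in CONTROL embryos, also free of overlap (-2.25, SE 0.32, edgeR adjusted p = 2.3e-07). Cox5a had 71.0, 140.1 and 213 in TBP LOF embryos and 268, 349 and 549 in CONTROL embryos (-1.40, SE 0.28, edgeR adjusted p = 8e-05), likewise without overlap. Cox5b, which binds zinc, had 37.8, 89.3 and 152 in TBP LOF embryos and 151, 257 and 404 in CONTROL embryos, and 8 of 9 TBP LOF embryos were under the CONTROL range (-1.58, SE 0.30, edgeR adjusted p = 2.9e-05). Cox8a, the member with most reads of all, had 814, 1357 and 2241 in TBP LOF embryos and 964, 1654 and 2579 in CONTROL embryos, so that the ranges nearly coincided. Its log2 fold change was -0.24 (SE 0.29, edgeR adjusted p = 0.58) with ERCC and 0.71 (edgeR adjusted p = 0.021) with TMM.

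With ERCC scaling, complex V had the highest share of members lower. With TMM its share of 33.3% was under those of the core subunits (42.9%) and assembly factors (37.5%) of complex I. Atp5k, subunit e of the membrane part Fo, had 9.42, 22.7 and 54.3 in TBP LOF embryos and 33.2, 128 and 187 in CONTROL embryos (-2.33, SE 0.36, edgeR adjusted p = 6.5e-07), with 7 of 9 TBP LOF embryos under the CONTROL range. Atp5g1, which encodes the c ring that turns with the proton flow, had 123, 199 and 435 in TBP LOF embryos and 570.3, 807 and 1239 in CONTROL embryos, with a wide gap between the groups (-1.84, SE 0.30, edgeR adjusted p = 1.8e-06). Atp5j, of the peripheral stalk, had 35.2, 108 and 202 in TBP LOF embryos and 229, 326 and 594 in CONTROL embryos, also with a gap (-1.77, SE 0.31, edgeR adjusted p = 6.8e-06). For Atp5j2, subunit f of Fo, the counts were 8.79, 47.6 and 77.3 in TBP LOF embryos and 63.7, 167 and 223 in CONTROL embryos (-1.87, SE 0.33, edgeR adjusted p = 1e-05), and 8 of 9 TBP LOF embryos were under every CONTROL embryo. The subunits of the catalytic F1 head, Atp5a1, Atp5b, Atp5c1, Atp5d and Atp5e, all fell by 0.98 (Atp5b) to 1.73 (Atp5a1) on the log2 scale. Members not called were Atp5g2 (-0.39, SE 0.40, edgeR adjusted p = 0.52), Atp5g3 (-0.68, SE 0.33) and the Atp5o readthrough. The calls of Atp5d, Ndufs1 and Atp5s were lost on leaving out 1 embryo in 8, 5 and 3 of 18 fits.

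The remaining members tested in TBP LOF embryos are given by the range of their log2 fold changes with ERCC scaling, in order from the lowest. Of the core subunits of complex I, Ndufs7, Ndufs3 and Ndufs1 were also lower, at -1.80 to -1.16. Of its supernumerary subunits, Ndufc2, Ndufa12, Ndufb4, Ndufs5, Ndufa9, Ndufb3 and Ndufa13 were also lower, at -2.82 to -0.94. Ndufs4, Ndufb9, Ndufa1, Ndufa8, Ndufa5, Ndufa7, Ndufs6, Ndufa11, Ndufa10, Ndufc1, Ndufb5, Ndufb8, Ndufb11, Ndufb10, Ndufa3 and Ndufv3 were not called, at -1.01 to -0.21. Of its assembly factors, Ndufaf6 was also lower, at -1.82. Ndufaf2 and Ndufaf3 were not called, at -0.49 to -0.34. Of complex III, Uqcrb and Uqcrc1 were also lower, at -1.45 to -1.14. Of complex IV, Cox8c, Cox7a2, Cox6c and Cox6a1 were also lower, at -2.11 to -0.89. Cox4i2, Cox7a1, Cox7a2l and Ndufa4 were not called, at -1.79 to -0.44. The call of Cox8c was lost without CONTROL embryo 10, at -1.13 (edgeR adjusted p = 0.33). Of complex V, Atp5o, Atp5h, Atp5s, Atp5f1, Atp5mpl and Atp5l were also lower, at -1.75 to -1.09. 

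In 14 of the 91 members every TBP LOF embryo lay under every CONTROL embryo, against 6.96% of all genes tested. They included Ndufs3, Ndufb2, Ndufb7, Ndufaf7, Ndufaf8, Uqcr10, Cox4i1, Cox5a, Cox7c, Atp5a1, Atp5g1, Atp5j and Atp5l. There were 0 members in which every TBP LOF embryo lay above. A gene without a read in some CONTROL embryo cannot lie under every CONTROL embryo in this way. The genes tested needed a read in only 25% of embryos, whereas 81 members were read in every embryo with mouse IgG. The share of 6.96% is therefore no measure for genes of the members' level, for which no share was computed. Ranked by level in the CONTROL embryos, 14 of 30 members in the group of lowest level were called lower, 17 of 30 in the group of middle level and 22 of 31 in the group of highest level, and the median log2 fold changes in that order were -1.09, -1.06 and -1.22. The median SE fell from 0.49 in the lowest group to 0.31 in the highest. The share of all genes called at these levels was not computed.

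**Figure D2:**
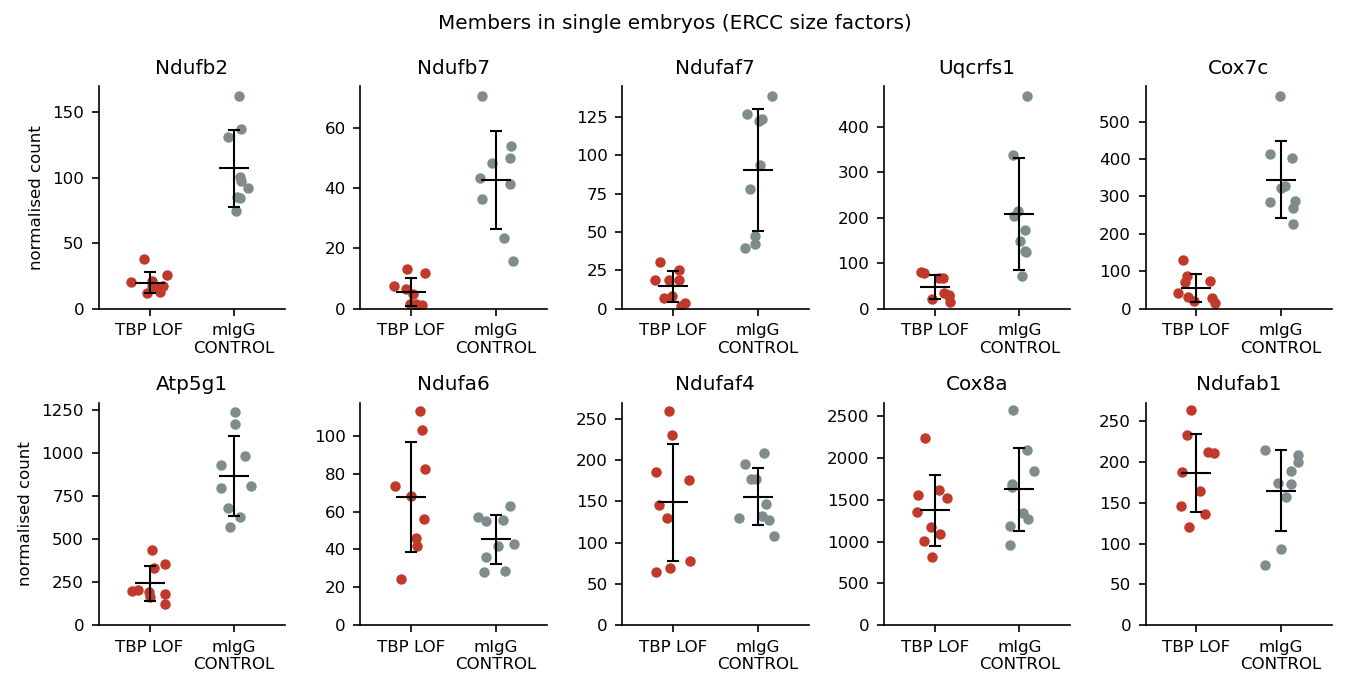
Normalised counts (ERCC size factors, y axes start at 0) of 10 members in 9 TBP LOF and 9 mIgG CONTROL embryos (x axis), with 1 point per embryo and bars giving the mean ± SD. The groups lie apart in Ndufb2, Ndufb7, Ndufaf7, Cox7c and Atp5g1 and overlap in the range of a few embryos in Uqcrfs1, while they overlap widely in Ndufa6, Ndufaf4, Cox8a and Ndufab1.

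Shares of reads within an embryo do not depend on the spike-ins. All 94 members made up 0.523% ± 0.106 (mean ± SD) of the reads of 9 TBP LOF embryos and 0.634% ± 0.0864 of those of 9 embryos with mouse IgG, and 4 of 9 TBP LOF embryos were under the lowest CONTROL embryo. The core subunits of complex I took 0.0089% ± 0.00378 and 0.0198% ± 0.00386, and all 9 TBP LOF embryos were under the range with mouse IgG. For complex V the shares were 0.102% ± 0.0289 and 0.175% ± 0.0297, with 8 of 9 under the range. Complex III took 0.0364% ± 0.0136 against 0.0481% ± 0.011, with 4 of 9 under it. With rabbit IgG the shares reached down to 0.00561% for the core subunits of complex I and 0.0845% for complex V. These lie inside the TBP LOF ranges of 0.00402% to 0.0144% and 0.0571% to 0.145%. Complex IV, with 0.262% ± 0.0567 and 0.268% ± 0.0405, and the supernumerary subunits of complex I, with 0.0914% ± 0.0189 and 0.0943% ± 0.0133, differed by less than their SD. In normalised counts, all members together had a mean of 7595 ± 2243 in TBP LOF and 14254 ± 3289 in CONTROL embryos, without overlap.

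**Figure D3:**
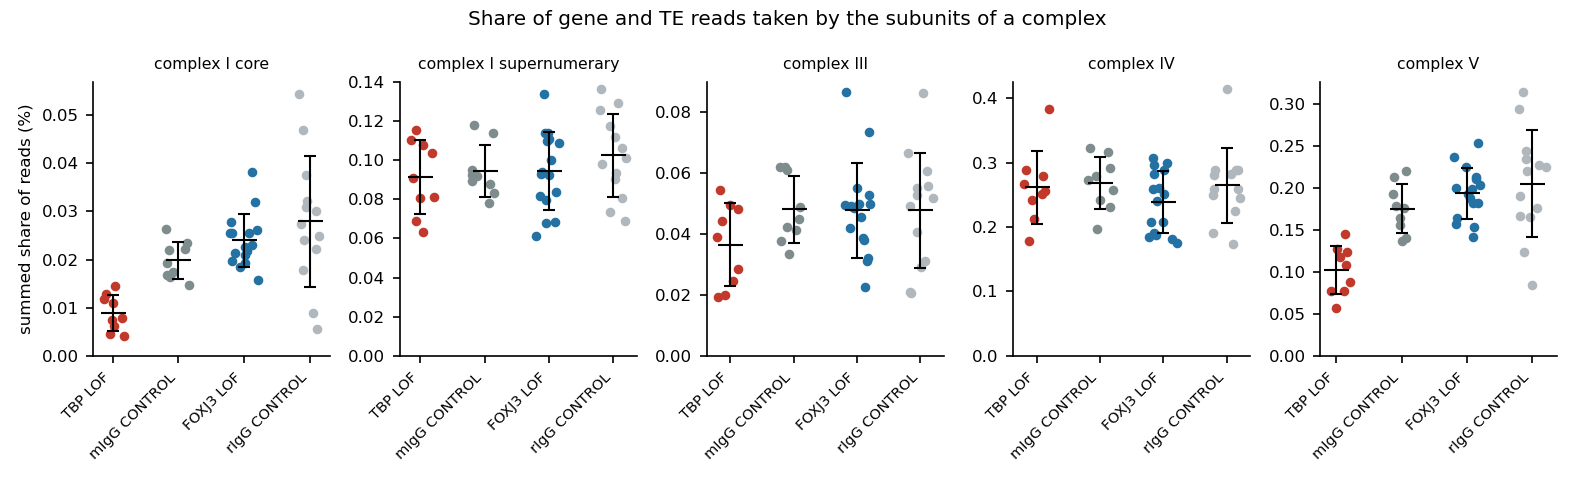
Share of the reads of genes and transposable element families (%, y axes start at 0) taken by the subunits of a complex in the 4 groups of embryos (x axis), with 1 point per embryo and bars giving the mean ± SD. The TBP LOF embryos lie under the mIgG CONTROL embryos for the core subunits of complex I and nearly so for complex V, and among them for complex IV and the supernumerary subunits of complex I. The lowest rIgG CONTROL embryos lie among the TBP LOF embryos for the core subunits of complex I and for complex V.

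Several subunits have alternative forms encoded by separate genes. In most pairs the form that somatic tissues share prevailed. With mouse IgG, Cox4i1 stood at 71.1 ± 19.6 CPM per kb (SD, n = 9) and Cox4i2, the form of lung, at 2.58 ± 2.38. Cox7a2 stood at 270.5 ± 68.3 and Cox7a1, the form of heart and muscle, at 7.80 ± 6.24. Cox6a1 stood at 259 ± 48.3, and Cox6a2, also of heart and muscle, was read in 2 of 9 embryos. Cox8b, of heart and muscle, and Ndufa4l2, which hypoxia induces, had no read in any of the 47 embryos, which allows a level of up to 0.0311 CPM over all of them. The testis forms were low, with Cox7b2 at 9.81 ± 7.37 CPM per kb against 63.5 ± 35.4 for Cox7b, and Cox8c at 8.44 ± 11.9. In normalised counts Cox7b2 lay at 0, 1.21 and 2.46 in TBP LOF embryos and 1.34, 9.98 and 29.8 in CONTROL embryos and fell in TBP LOF embryos (-3.26, SE 0.68, edgeR adjusted p = 0.00012), whereas Cox7b was not called (-0.32, SE 0.35, edgeR adjusted p = 0.55).

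Cox6b was the exception, since Cox6b2, known as the testis form, was not the scarcer one. With mouse IgG it stood at 317 ± 104 CPM per kb against 230.1 ± 42.8 for Cox6b1, means that lie within their SD. In reads not divided by length, Cox6b2 exceeded Cox6b1 in each of these embryos, with a log2 ratio of 0.54 to 1.80. In normalised counts Cox6b1 had 48.2, 130.4 and 241 in TBP LOF embryos and 240.1, 352 and 528 in CONTROL embryos and fell (-1.44, SE 0.31, edgeR adjusted p = 0.00016). Cox6b2 had 429, 872 and 1475 in TBP LOF embryos and 377, 726 and 1291 in CONTROL embryos and was not called (0.08, SE 0.30, edgeR adjusted p = 0.88), or was called higher with TMM (1.00, edgeR adjusted p = 0.0022). The ratio of the pair within an embryo, log2(Cox6b2 over Cox6b1), needs no size factor, and its test, like those of the other ratios, was added after the values of the genes had been seen. It was 2.75 ± 0.78 in TBP LOF and 1.05 ± 0.39 in CONTROL embryos (n = 9 and 9), a difference of 1.70 by an exact permutation test (two-sided, p = 8.2e-05, or 0.00049 when adjusted over the 6 ratios tested), and above the CONTROL median in 9 of 9 TBP LOF embryos. In FOXJ3 LOF it was 0.98 ± 0.49 against 0.89 ± 0.97 (n = 16 and 13, permutation test within batches, p = 0.74, adjusted p = 0.74).

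**Figure D4:**
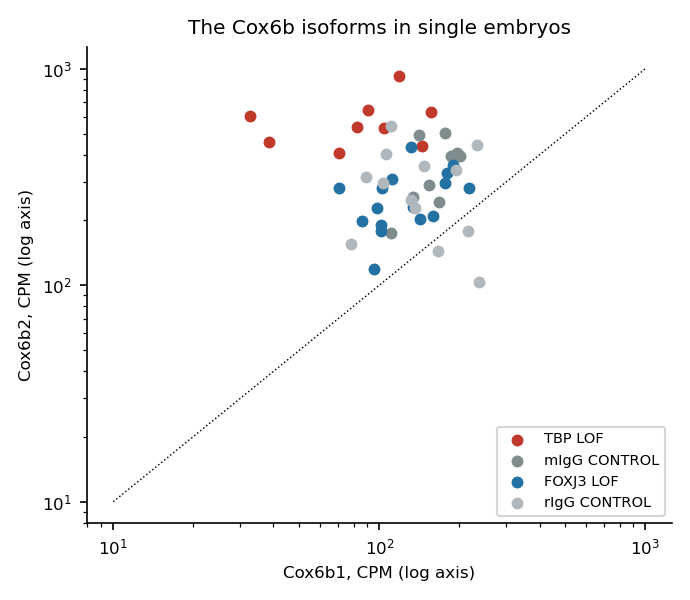
CPM of Cox6b2 (y axis) against Cox6b1 (x axis) in single embryos of the 4 groups, both axes on a log scale, with equal reads on the dotted line. All 9 TBP LOF, 9 mIgG CONTROL and 16 FOXJ3 LOF embryos lie above the line, and 3 embryos with rabbit IgG lie under it.

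Atp5g1, Atp5g2 and Atp5g3 encode the same mature protein of the c ring and differ in the peptide that directs it into mitochondria. With mouse IgG they stood at 78.3 ± 15.2, 7.80 ± 3.49 and 11.7 ± 4.38 CPM per kb. The log2 ratio of Atp5g1 over Atp5g3 was 2.71 ± 0.46 in TBP LOF and 3.98 ± 0.62 in CONTROL embryos (exact permutation test, p = 0.00021, adjusted p = 0.00062), and that over Atp5g2 3.55 ± 1.40 and 4.97 ± 0.75 (exact permutation test, p = 0.017, adjusted p = 0.034). Atp5g1 was thus lower relative to both partners, and 9 and 8 of 9 TBP LOF embryos were under the CONTROL median. In FOXJ3 LOF embryos the same ratios differed by -0.29 (permutation test, p = 0.22, adjusted p = 0.33) and -0.45 (permutation test, p = 0.29, adjusted p = 0.34).

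The second comparison asked the same of FOXJ3. Counts were scaled by TMM and library batch was a covariate. Of 91 members tested 0 were called in edgeR and 0 in DESeq2, against 0.0107% of the 18626 genes tested. At an unadjusted p under 0.05 edgeR gave 4 members and DESeq2 6, against 5.69% of all genes in edgeR. The median log2 fold change was -0.02 over the members and -0.03 over all genes, and single members lay between -0.65 and 0.77 with a median SE of 0.22. By complex the medians lay between -0.13 (assembly factors of complex I) and 0.11 (complex III). Within batch 1 alone the members had a median of 0.10 and within batch 2 alone -0.14, with 0 calls in either. At an unadjusted p under 0.05 edgeR gave 3 of 91 members in batch 1, against 8.24% of all genes, and 2 of these were lower, against 5.77%. In batch 2 it gave 12 of 92, against 5.45% of all genes, and all 12 were lower, against 2.65%.

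The 3 members with the smallest p were Ndufs5, Cox6c and Ndufs4. Ndufs5, a supernumerary subunit, had normalised counts of 12.3, 25.8 and 42.2 in FOXJ3 LOF embryos and 18.9, 39.0 and 53.9 in rabbit IgG embryos and a log2 fold change of -0.65 (SE 0.20, edgeR adjusted p = 0.62). Cox6c, a structural subunit of complex IV, had 148, 255 and 333 in FOXJ3 LOF embryos and 185, 311 and 646 in rabbit IgG embryos (-0.38, SE 0.15, edgeR adjusted p = 0.8). Ndufs4, which stabilises the NADH module, had 2.73, 25.4 and 66.3 in FOXJ3 LOF embryos and 2.49, 18.5 and 29.3 in rabbit IgG embryos (0.77, SE 0.33, edgeR adjusted p = 0.83). In all of them the ranges overlapped. Their log2 fold changes kept their sign in both batches, at -0.48 and -0.89 (Ndufs5), -0.45 and -0.32 (Cox6c) and 0.71 and 0.82 (Ndufs4) in batches 1 and 2. As the 3 were picked from the fit of these same batches together, their sign within each batch is no separate check. The share of reads of all members was 0.63% ± 0.111 in FOXJ3 LOF (SD, n = 16) and 0.681% ± 0.153 in CONTROL embryos (n = 13). Within batch 2 it was 0.555% ± 0.0711 against 0.669% ± 0.145, and within batch 1 0.689% ± 0.102 against 0.691% ± 0.171.

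Whether both effects differ was tested directly, as the TBP LOF effect minus the FOXJ3 LOF effect in 1 model of all 47 embryos scaled to ERCC. The 2 experiments share no CONTROL embryos. Of 91 members 50 were lower in this difference and 0 higher, against 28.2% and 0.954% of 18759 genes. The difference was not fitted under edgeR's stricter filter, so no share for genes of higher level is at hand. In edgeR 0 members had an unadjusted p under 0.05 in the higher direction, and 47 of the 50 were also among the 53 called in TBP LOF alone. The difference contains the TBP LOF effect itself, so this overlap is no separate result. Complex V gave 15 of 18, complex IV 8 of 17, complex III 5 of 8, complex II 2 of 4, and complex I 5 of 7 core subunits, 10 of 29 supernumerary subunits and 5 of 8 assembly factors. The difference was -2.57 (SE 0.41, edgeR adjusted p = 2e-06) for Ndufb2, -2.95 (SE 0.46, edgeR adjusted p = 1.1e-06) for Cox7c and -1.95 (SE 0.36, edgeR adjusted p = 2e-05) for Atp5g1. For Cox8a it was -0.32 (SE 0.35, edgeR adjusted p = 0.55). In FOXJ3 LOF alone, scaled by TMM and so on another scale than this difference, the log2 fold changes of these 4 genes were -0.03 (Ndufb2), 0.11 (Cox7c), -0.09 (Atp5g1) and -0.06 (Cox8a). With TMM, 17 members were lower in the difference and 5 higher, against 11.2% and 10.9% of all genes.

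**Figure D5:**
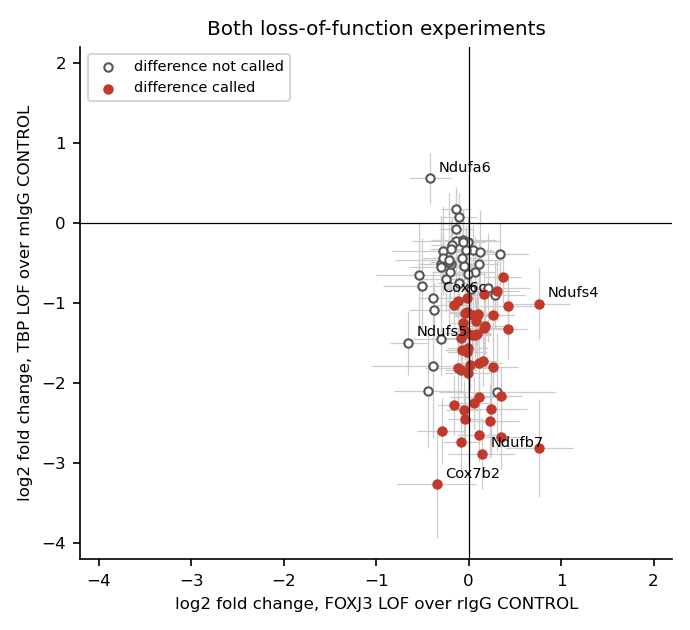
Log2 fold change of each member in TBP LOF (ERCC size factors, y axis) against that in FOXJ3 LOF (TMM, x axis), both over their own CONTROL embryos, with bars of 1 SE. Filled points (50) passed an adjusted p under 0.05 in the test of the difference between the effects. The points spread from 0.56 to -3.26 along the y axis and from -0.65 to 0.77 along the x axis.

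Other genes of the pathway, in lists drawn up by function, were set beside the members in TBP LOF embryos. Cytochrome c (Cycs) fell, with normalised counts of 119 ± 45.2 against 373 ± 144 (mean ± SD, n = 9 and 9) and a log2 fold change of -1.66 (SE 0.30, edgeR adjusted p = 1.3e-05). Cyc1, the cytochrome of complex III, had 0.94 (SE 0.38, edgeR adjusted p = 0.053), and Cyct, the cytochrome c of testis, was not called either (0.22, SE 0.98, edgeR adjusted p = 0.9). Of assembly factors, 5 of 6 were lower for complex III, 12 of 24 for complex IV and 3 of 11 for complex I outside the Ndufaf family. For complex II 0 of 4 were lower, against the 29.8% of all genes called lower. The list of complex V held Usmg5 and the inhibitor Atpif1 beside assembly factors. It gave 2 of 5 lower, and these were Usmg5 and Atpif1, so that no assembly factor of complex V was called. The counts for complex I and complex II were thus no higher than the 29.8%. With edgeR's stricter filter on expression 52.7% of 7699 genes were lower, and the lists of assembly factors were not counted under it. With ERCC scaling 0 of these factors were called higher in edgeR. With TMM the lower calls were 2 for complex III, 7 for complex IV, 2 for complex I, 1 for complex V and 0 for complex II, and edgeR called 3 for complex IV and 1 for complex II higher. Of all genes, TMM gave 12.9% lower and 13.2% higher. On that scale Cyc1 stood at 1.97 (edgeR adjusted p = 0.00014) and Cox10 at 1.61 (edgeR adjusted p = 2.5e-05). With ERCC, at an unadjusted p under 0.05 edgeR gave 1 of these higher, Cox10, which takes part in making heme a (0.79, SE 0.33, edgeR adjusted p = 0.065), and DESeq2 called 1 higher. DESeq2 also called 1 higher in the list of Cycs, Cyc1 and Cyct. The largest fall was that of Sco2, which delivers copper to complex IV (2.85 ± 2.33 against 50.2 ± 26.8, log2 fold change -4.21, SE 0.48, edgeR adjusted p = 1.5e-09). Cox17, another copper chaperone, had the next smallest p in this list (-2.79, SE 0.38, edgeR adjusted p = 8.3e-08). Ecsit and Tmem186, both of complex I assembly, had -2.82 and -2.11, and Uqcc1 and Uqcc3 of complex III -2.27 and -2.03. For complex V, Usmg5 had -1.69 and the inhibitor Atpif1 -1.44. Sdhaf1, Sdhaf3 and Sdhaf4 of complex II, at -0.07, 0.51 and 0.36, were not called. With TMM Sdhaf4 was called higher (1.32, edgeR adjusted p = 0.020).

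Against the same 29.8% of all genes, 8 of 13 genes of ubiquinone synthesis, upstream of complex III, were lower, led by Coq4 (-2.32, SE 0.37, edgeR adjusted p = 1.3e-06) and Coq7 (-2.79, SE 0.44, edgeR adjusted p = 1.5e-06), and 2 of 7 that bring electrons to ubiquinone by other routes, Gpd2 (-1.91, SE 0.39, edgeR adjusted p = 0.0001) and Etfb (-1.24, SE 0.49, edgeR adjusted p = 0.048). Of the tricarboxylic acid cycle 5 of 14 were lower, among them Idh3b (-1.98, SE 0.41, edgeR adjusted p = 0.00012) and Mdh2 (-1.27, SE 0.28, edgeR adjusted p = 0.0003), while Suclg2 (0.54, SE 0.36, edgeR adjusted p = 0.28) and Dlst (0.30, SE 0.42, edgeR adjusted p = 0.65) were not called. DESeq2 called 7 of this cycle lower, against 30.7% of all genes in that test. In edgeR the counts for electron transfer and for this cycle were near the share of all genes. Under edgeR's stricter filter on expression 52.7% of 7699 genes were lower, and the lists given here were not counted under it. Of the regulators of mitochondrial biogenesis 9 of 14 were lower. They included Tfb2m (-2.30, SE 0.31, edgeR adjusted p = 7e-08) and Polrmt (-2.65, SE 0.40, edgeR adjusted p = 5e-07), both needed to transcribe mitochondrial DNA. Named for their letters in the printed promoters and after their values were seen, Nrf1 stood at -1.85 (SE 0.32, edgeR adjusted p = 6.3e-06), Gabpa at -2.24 (SE 0.36, edgeR adjusted p = 1.9e-06) and Yy1 at -0.96 (SE 0.35, edgeR adjusted p = 0.027). Values of Sp factors, whose GC box is marked there as well, are not given. A link between these factors and the values of the members was not tested. In these 4 lists and with ERCC scaling, 0 genes were called higher by edgeR or DESeq2, and 0 had an unadjusted p under 0.05 in that direction in either. With TMM, edgeR called 3 lower and 1 higher in ubiquinone synthesis, 0 and 1 in electron transfer, 1 and 3 in the tricarboxylic acid cycle and 6 and 0 among the regulators. Of all genes, 12.9% were lower and 13.2% higher on that scale.

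The 13 subunits encoded in mitochondrial DNA gave other values than the nuclear members. With ERCC scaling 0 of 13 were called in edgeR or DESeq2, 1 (mt-Nd6, -0.86, SE 0.40, edgeR adjusted p = 0.1) had an unadjusted p under 0.05 in edgeR and 0 in DESeq2, and their median log2 fold change was -0.08. For mt-Nd3 it was -0.33 (SE 0.32, edgeR adjusted p = 0.49) and for mt-Nd1 0.09 (SE 0.33, edgeR adjusted p = 0.88). With TMM 6 of 13 were higher and 0 lower, against 13.2% and 12.9% of all genes. Mitochondrial reads took 6.87% ± 1.93 of reads in TBP LOF and 5.62% ± 1.79 in CONTROL embryos. A difference between mitochondrial and nuclear subunits was not tested. In FOXJ3 LOF embryos 0 genes of any of these lists were called by edgeR or DESeq2.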

How the data were processed

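The deposited tables held read counts per gene and ERCC transcript and estimated counts (expected counts) per transposable element (TE) family, without normalization. All were whole numbers, so that rounding changed nothing. To make them the authors trimmed reads with Trimmomatic, sorted 5' reads, mapped them with STAR (version 2.7.11a in the submitters' processing notes) to GRCm38, kept read 2 and counted with TEcount against gencode M20. For strand and for reads that fit several copies, the counting mode was not given in the sources used here. Values of members with near-identical copies, or that overlap another gene, are therefore uncertain.

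Symbols and exon lengths came from gencode M21 (54723 genes matched) and promoters from RefSeq. Quality control asked for 500000 reads and 1000 genes per embryo, and for no more than 10% mitochondrial and 15% ERCC reads. Features read in 25% of embryos or more were tested with edgeR 4.0.16 in R 4.3.3 (quasi-likelihood, two-sided, Benjamini-Hochberg adjusted over all features, threshold 0.05). TBP embryos were scaled by the median of ratios of 42 ERCC transcripts and FOXJ3 embryos by TMM, with batch as covariate. The model of all embryos used 41 ERCC transcripts. Standard errors came from the F statistic. The authors used DESeq2, here an alternative (1.42.0), beside other scalings, filters and embryos and the replicate block. Fits were tested on simulated data. Isoform ratios took a pseudocount of 0.5 reads and pairs with 20 reads or more on average. Their permutations were exact for TBP and 100000 within batches for FOXJ3. Computations also used Python 3.11.15 with scipy 1.17.1, pandas 2.3.3 and numpy 2.4.6, and figures matplotlib 3.10.9.

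Members and lists were chosen with earlier results of these data known. The genes named were, in each of the subunits of complex I, its assembly factors and complexes II to V, the 4 with the smallest p among those lower in TBP LOF, any called higher or, with none, the one with the largest log2 fold change, and the one with the highest level, then the 3 with the smallest p in FOXJ3 LOF, the isoform pairs, and up to 2 of smallest p per direction in the other lists. Members named beyond these, such as those not called, the F1 head and those that made up a count, were named after their values were seen. A member that this rule picked is not reported here. The TBP embryos were collected in 3 rounds that the labels do not assign to embryos, so no term for it was fitted. The paper gives at least 3 independent experiments for the embryos of both targets. For the FOXJ3 embryos no such term beyond library batch was fitted either. Limits from counts cover counting error only, as the reads carry no molecular identifiers. Tables of counts per TE insertion were not used here.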

Additional observations from a re-analysis of the deposited data

Results flagged for a closer look

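Over 114 sets of 9 embryos checked, 6 had 1 embryo far from the others, and chance marks about 1 in 20. In normalised counts these were Ndufs8 in TBP LOF (89.3, next 34.9), Ndufaf1 in TBP LOF (16.4, next 7.35), Ndufa2 in mIgG CONTROL embryos (759, next 485), Sdhb in CONTROL (84.6, next 31.2), Cox7b2 in CONTROL (29.8, next 15.6) and Cox8c in CONTROL (47.0, next 10.4). In each it was the highest embryo.

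The effect of TBP LOF differed from that of FOXJ3 LOF, by the test of the difference itself, in 50 of 91 members, all lower, against 28.2% of all genes called lower in the same test. These were 5 of 7 core subunits, 10 of 29 supernumerary subunits and 5 of 8 assembly factors of complex I, 2 of 4 subunits of complex II, 5 of 8 of complex III, 8 of 17 of complex IV and 15 of 18 of complex V. The share of all genes was not computed under edgeR's stricter filter for this test.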

How the results depend on the processing

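In TBP LOF, 53 members were lower and 0 higher. DESeq2's test gave 54 and 0, no filter 54 and 0, edgeR's stricter filter 50 and 0, all 19 embryos 53 and 0, and leaving out 1 embryo in turn 50 to 56 and 0. TMM gave 22 and 6, and DESeq2 size factors 23 and 6, scales on which the median of all genes is set near 0. In the TBP LOF effect minus the FOXJ3 LOF effect, 50 were lower and 0 higher, 51 and 0 with all 49 embryos, and 17 and 5 with TMM. In FOXJ3 LOF 0 members were called under each of the 10 alternatives and on leaving out 1 embryo in turn.

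The log2 fold change in TBP LOF was negative in 88 of 91 members with ERCC, 54 with TMM and 54 with DESeq2 size factors. Scaling shifts all genes together, their median from -0.70 to 0.13 (TMM) and 0.15 (DESeq2 size factors). Among the 41 genes followed through the alternatives, those that turned sign were, with TMM, Ndufaf4 0.75, Sdha 0.14, Sdhb 0.0679, Uqcrh 0.57, Cox8a 0.71, Atp5g2 0.52, Cox6a1 0.0697, Cox7b 0.54, Atp5g3 0.27, Ndufa4 0.38, and with DESeq2 size factors, Ndufaf4 0.78, Sdha 0.17, Sdhb 0.0838, Uqcrh 0.61, Cox8a 0.74, Atp5g2 0.55, Cox6a1 0.0824, Cox7b 0.55, Atp5g3 0.30, Ndufa4 0.39. Ndufaf4 and Cox8a of these became called, as did Ndufb6 (-0.24 with ERCC), which was not among the 41. Sdhb was called without TBP LOF embryo 10 (-1.25) and lay at -0.50 without CONTROL embryo 10, and Cox8c lost its call without CONTROL embryo 10 (-1.13). On leaving out 1 embryo, Ndufaf4 ranged from -0.21 to 0.0302 and Cox6b2 from -0.0580 to 0.19.

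Embryo numbers do not pair embryos: same-numbered embryos of both groups correlated at -0.052 to 0.122 in the 7 pairs of the TBP experiment (1 of 7 best with its own number) and -0.21 to 0.273 in the 12 of the FOXJ3 experiment (2 of 12). With the number as a replicate block, 50 members were lower and 0 higher in TBP LOF, 84 of 91 were negative, Ndufaf4 (0.0525) and Cox7b (0.0215) turned sign among the 41 genes followed, and 0 were called in FOXJ3 LOF. The isoform ratios have no other scaling. Depth limits the scarce members: the 30 of lowest level had a median SE of 0.49 against 0.31 in the 31 of highest level, and Cox6a2, Cox8b and Ndufa4l2 were not testable at this depth.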
